A study of Mus musculus with 9 samples.

Results

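The genes described here are 37 mouse genes of the endoplasmic reticulum (ER): 17 chaperones and foldases, 12 genes of N-linked glycosylation, and 8 sensors, factors and targets of the unfolded protein response (UPR). They were chosen by symbol, through the Ensembl identifier, out of 47729 gene rows, and all 37 passed the filter on low counts with the 17671 genes tested. The data are RNA sequencing of dissected adult midbrain in 3 Dot1l genotypes. Dot1l encodes the methyltransferase of histone H3 lysine 79. All mice were C57/Bl6, carried Pitx3-Cre/+ and the reporter Rosa-lox-stop-lox-Yfp, and were taken at postnatal day 180. They differed in Dot1l: Dot1l(+/+) with no floxed allele, Dot1l(fl/+) with 1 and Dot1l(fl/fl) with 2. Cre is expressed from the Pitx3 locus, so recombination is expected only in the dopaminergic lineage, while most cells of the dissected tissue keep an intact Dot1l. There were 3 libraries per genotype, each made from pooled tissue of 3 mice, so that p-values measure the spread between pools. The study's methods describe pools built from matched sets of the genotypes within nests, whereas the labels do not say that a replicate number marks such a set. The series' design text speaks of sorted YFP-positive cells at E15.75, whereas the labels of all 9 samples say dissected tissue at P180, and the sample labels were followed.

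Secreted and membrane proteins enter the ER unfolded. There, chaperones such as BiP hold them, protein disulfide isomerases form their disulfide bonds, and the oligosaccharyltransferase attaches a preassembled sugar chain to asparagines, which the lectins calnexin and calreticulin then read during folding. When unfolded proteins build up, the sensors IRE1, PERK and ATF6 start the UPR, which raises the transcription of chaperones through XBP1, ATF6 and ATF4. Neurons make large amounts of receptors, channels and secreted peptides, and the ER-resident factor MANF is known for its protective effect on midbrain dopaminergic neurons.

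Library totals lay between 16422135 and 28403218 counts. Levels of Dot1l, the targeted gene, were 85.2, 80.2 and 85.1 CPM (counts per 1000000) in controls, against 84.2, 60.6 and 75.6 with 1 floxed allele and 82.1, 73.9 and 82.9 with 2. The groups overlapped, with log2 fold changes of −0.19 (unadjusted p = 0.069 in edgeR) and −0.07 (unadjusted p = 0.473 in edgeR) against controls. These counts cover the whole gene and all cells of the tissue, and not only the floxed exon in cells with Cre, so they do not check the labels. The tissue is labelled as midbrain dopamine neurons. Its 10 dopamine neuron markers summed to 478 to 696 CPM and its 8 oligodendrocyte markers to 10193 to 11700 CPM, so these are libraries of mixed tissue. The dopamine markers were lower in the floxed genotypes: 0 of 10 lay above 0 in either floxed genotype, the median log2 fold changes were −0.20 with 1 floxed allele and −0.54 with 2, and in Dot1l(fl/fl) 8 of 10 had an unadjusted p under 0.05. Some libraries stood apart in markers of neighbouring tissue. Choroid plexus markers summed to 597 CPM in Dot1l(fl/+) replicate 3, against 76.3 to 165 in controls, 127 and 186 in the other Dot1l(fl/+) libraries and 50.7 to 57.7 in Dot1l(fl/fl). Hypothalamic neuropeptide markers summed to 125 CPM in Dot1l(fl/+) replicate 1 and 58.0 in its replicate 3, against 1.67 to 9.51 in the other 7 libraries. In bulk tissue, fewer cells of a type and less RNA per cell cannot be told apart.

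Classic UPR targets are known by letters in their promoters, which are shown here as a description of the 37 genes. The ER stress response element (ERSE) is CCAAT and CCACG set 9 bases apart. RefSeq promoter windows of the GRCm38.p6 assembly, from 250 bases before to 50 after the gene start, were given for 32 of the 37 genes, and both strands were searched. ERSE letters were found in 7 of the 32, against 37 of all 27025 genes with a window (0.137%). The list was picked for chaperone, glycosylation and UPR genes, so an excess over all genes follows from that choice. The 7 were all chaperones, and Hsp90b1 held 2 matches. The stretches below are written 5′ to 3′ on the strand of the gene, all lie before the RefSeq gene start, and the match is in capitals (a match on the other strand begins with CGTGG and ends with ATTGG). That of Hspa5 lies in a first exon of a longer GENCODE transcript and is cut to 5 bases on each side of the match.
Hspa5, chr2:34772020-34772048, plus strand: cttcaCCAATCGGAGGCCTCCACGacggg
Hsp90b1, chr10:86705618-86705676, minus strand: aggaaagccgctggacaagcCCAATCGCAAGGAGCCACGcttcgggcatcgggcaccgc
Hsp90b1, chr10:86705513-86705571, minus strand: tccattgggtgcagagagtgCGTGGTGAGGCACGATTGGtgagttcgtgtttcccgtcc
Calr, chr8:84847055-84847113, minus strand: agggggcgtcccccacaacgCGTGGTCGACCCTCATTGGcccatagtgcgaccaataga
Canx, chr11:50325780-50325838, minus strand: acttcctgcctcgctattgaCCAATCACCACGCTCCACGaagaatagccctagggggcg
Pdia6, chr12:17266471-17266529, plus strand: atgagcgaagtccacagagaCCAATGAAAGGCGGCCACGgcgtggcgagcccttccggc
Dnajc3, chr14:118937807-118937865, plus strand: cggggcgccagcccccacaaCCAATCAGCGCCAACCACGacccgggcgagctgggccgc
Creld2, chr15:88819500-88819558, plus strand: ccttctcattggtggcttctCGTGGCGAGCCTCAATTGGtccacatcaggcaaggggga

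The second form, ERSE-II, is ATTGG, 1 base, then CCACG, where ATTGG holds the letters of CCAAT on the other strand. It was found in 3 of the 32 genes, against 12 of 27025 in all (0.0444%). In Dnajb11 and Krtcap2 the match lay after the gene start. In Herpud1, whose product takes part in ER-associated degradation, it lay before it.
Herpud1, chr8:94386357-94386407, plus strand: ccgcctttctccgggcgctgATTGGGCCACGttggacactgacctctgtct
The UPR element TGACGTGG and the ATF4 element TGATGNAAT were in none of the 32 windows, against 0.714% and 1.08% of all genes. A match is only a description of these letters, and no match says nothing about a factor.

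Levels of the 37 genes spanned a wide range. Per kilobase of principal transcript and averaged over the 9 libraries, the most abundant were Hsp90b1 (GRP94) with 167 CPM per kb, Canx (calnexin) with 155, Calr (calreticulin) with 143 and Hspa5 (BiP) with 123. Pdia3, the isomerase that works with those lectins, followed with 85.4 CPM per kb. Among glycosylation genes the highest was Tusc3, an oxidoreductase subunit of the oligosaccharyltransferase, with 69.3 CPM per kb, and the lowest was the catalytic subunit Stt3a with 10.1, while its paralog Stt3b had 25.9. Among UPR genes Atf4 had 54.6 and Xbp1 39.6 CPM per kb, the sensors Atf6, Eif2ak3 (PERK) and Ern1 (IRE1) 11.3, 8.46 and 2.58, and Trib3, a target of the ATF4 and CHOP branch, 0.204. Trib3 had 3 counts in its lowest library, close to the limit of the depth.

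Dot1l(fl/+) was compared with Dot1l(+/+) to ask whether loss of 1 Dot1l allele goes with a different level of this machinery. Small upward differences were seen in chaperones and in glycosylation genes. For these Dot1l(fl/+) mice the study had already listed ER chaperones among the up-regulated genes at unadjusted thresholds. The 37 genes were chosen with earlier results of these data known, so their share beside all genes is a description and no independent support. In edgeR's quasi-likelihood test, 9 of 37 genes (24.3%) had an unadjusted p under 0.05 on the higher side, where 4.3% of all genes tested did, and 0 of 37 did on the lower side, where 4.09% of all genes did. The 9 were the chaperones Calr, Pdia4, Pdia6, Sdf2l1 and Manf and the glycosylation genes Dad1, Krtcap2, Tmem258 and Alg1. Log2 fold changes lay above 0 in 30 of 37 genes (81.1%, against 48.9% of all genes), and their median was 0.11, against −0.0034 over all genes. No gene of the 17671, and so none of the 37, passed at an adjusted p under 0.05 (0%), and the lowest adjusted p of the 37 was 0.54. DESeq2 called 0 of 37 after adjustment in a fit of all 9 libraries (0.0499% of the genes it gave an adjusted p) and 1 of 37 (Alg1) in a fit of the 6 libraries compared (0.242%). At an unadjusted p under 0.05 it had 12 of 37 in the first, where 4.42% of all genes had one in either direction, and 11 in the second (3.49% of all genes). These were the 9 genes with Hspa5 and Xbp1, and in the first also Dnajb11.

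**Figure D1:**
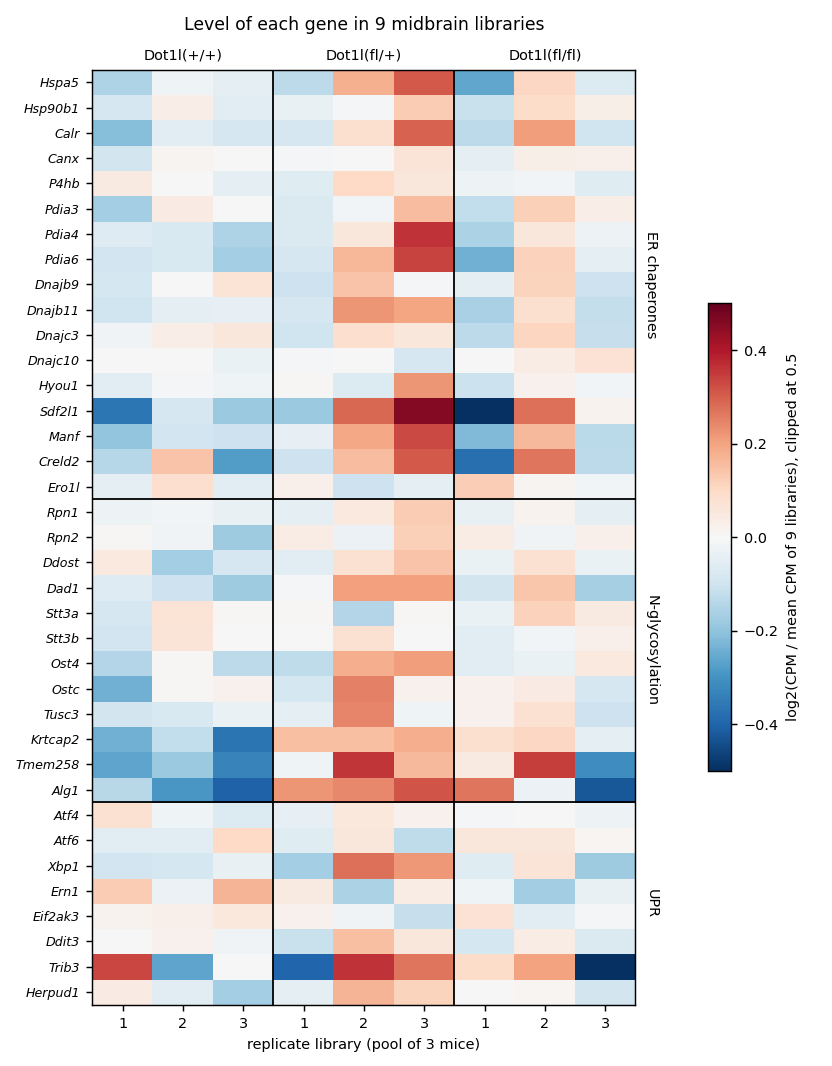
Level of each of the 37 genes (rows) in each library (columns, 3 per genotype), as the log2 ratio of its CPM to its mean CPM over the 9 libraries, with colours clipped at 0.5. Dot1l(fl/+) replicates 2 and 3 and Dot1l(fl/fl) replicate 2 are red over most chaperones, whereas Krtcap2 and Alg1 are red in all 3 Dot1l(fl/+) libraries.

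Pdia6, a disulfide isomerase that binds BiP, had 93.4, 94.6 and 88.8 CPM in controls, against 94.2, 112 and 126 with 1 floxed allele and 84.5, 108 and 96.6 with 2. Replicate 1 of Dot1l(fl/+) lay within the control range and the other 2 above it. Against controls, Dot1l(fl/+) had a log2 fold change of 0.26 (SE 0.098, 1.2-fold, unadjusted p = 0.0182 and adjusted p = 0.541 in edgeR). Its promoter holds the ERSE letters shown above.

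Pdia4 (ERp72), a further isomerase, had 47.2, 46.8 and 44.4 CPM in controls, against 47.0, 51.4 and 63.4 with 1 floxed allele and 44.3, 51.4 and 48.5 with 2. The groups overlapped, and 1 library, Dot1l(fl/+) replicate 3, was far above the rest. Dot1l(fl/+) had a log2 fold change against controls of 0.22 (SE 0.095, unadjusted p = 0.0341 in edgeR). Calr, the soluble lectin chaperone and calcium store, had 270, 302 and 295 CPM in controls, against 295, 331 and 384 with 1 floxed allele and 286, 362 and 292 with 2. Here too the lowest Dot1l(fl/+) library fell inside the control range, and Dot1l(fl/fl) replicate 2 lay between the upper 2 Dot1l(fl/+) libraries. The difference with 1 floxed allele was, on the log2 scale, 0.22 (SE 0.10, unadjusted p = 0.0449 in edgeR).

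Manf, which binds BiP and is also secreted, had 31.3, 33.6 and 33.4 CPM in controls, against 34.9, 41.0 and 45.1 with 1 floxed allele and 30.8, 40.2 and 32.7 with 2. It was the only chaperone of the 17 whose Dot1l(fl/+) libraries all lay above all controls (5.88%). That is near the 6.84% of all genes tested, so it does not set the chaperones apart. For Dot1l(fl/+) the log2 fold change came to 0.30 (SE 0.11, unadjusted p = 0.0136 in edgeR). Exons of Manf overlap those of Rbm15b on the same strand (48.0 CPM, log2 fold change 0.10 in Dot1l(fl/+)) and of Dcaf1 on the other (47.6 CPM, −0.05), so its counts are uncertain where reads of these genes could be shared.

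Sdf2l1, a partner of the ER J-domain proteins, had 6.62, 8.03 and 7.48 CPM in controls, against 7.48, 10.4 and 11.7 with 1 floxed allele and 6.00, 10.3 and 8.61 with 2. With 140 counts in its lowest library it was the least covered chaperone, and its spread within the floxed groups was wide. With 1 floxed allele the log2 fold change came to 0.41 (SE 0.19, unadjusted p = 0.0486 in edgeR). Hspa5, the central chaperone and sensor ligand, had 348, 381 and 374 CPM in controls, against 353, 438 and 479 with 1 floxed allele and 323, 416 and 369 with 2. Its Dot1l(fl/+) libraries went from the control range to well above it, and the log2 fold change of 0.20 (SE 0.10) had an unadjusted p of 0.0713 in edgeR. That call depended on the fit, with unadjusted p = 0.0405 and 0.0237 in the DESeq2 fits of 9 and 6 libraries. The J-domain cofactor Dnajb11 was similar, with a log2 fold change of 0.18 (unadjusted p = 0.0528 in edgeR).

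The other 10 chaperones had log2 fold changes from −0.04 (Ero1l, the oxidase that recharges disulfide isomerases) to 0.21 (Creld2, an isomerase-like factor induced by ER stress), with unadjusted p-values of 0.219 or more. They included the abundant Hsp90b1 (0.06), Canx (0.04), Pdia3 (0.06) and P4hb (0.04), the nucleotide exchange factor Hyou1 (0.09), and the J-domain proteins Dnajb9 (0.02), Dnajc3 (−0.01) and Dnajc10 (−0.02). Over all 17 chaperones the median log2 fold change was 0.09. Of the 17, 14 lay above 0, against 48.9% of all genes. An unadjusted p under 0.05 was reached by 5, all on the higher side, where 4.3% of all genes did. Among the 15 chaperones with a promoter window, the 7 with ERSE letters had a median of 0.20 with 2 at that p, and the 8 without had a median of 0.05, also with 2. Both kinds covered overlapping ranges, from −0.01 to 0.26 and from −0.04 to 0.41, and no test was made between them.

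Chaperone levels also varied between the libraries of a genotype. In each library the level of each gene was set against its own mean over the 9 libraries, on the log2 scale, and the median over the 17 chaperones was 0.20 in Dot1l(fl/+) replicate 3, 0.11 in Dot1l(fl/fl) replicate 2 and 0.09 in Dot1l(fl/+) replicate 2. It was below 0 in the other 6 libraries, and Dot1l(fl/+) replicate 1, with −0.07, lay between the control values of −0.09 and −0.0020. In 9 of the 17 chaperones, Hspa5, Hsp90b1, Calr, Canx and Pdia3 among them, replicate 1 was the lowest library in all 3 genotypes, which held for 1 of 12 glycosylation genes, 0 of 8 UPR genes and 4.15% of all genes tested. Without Dot1l(fl/+) replicate 3, the library with the highest sum of choroid plexus markers, none of the 5 chaperones kept an unadjusted p under 0.05. Their log2 fold changes fell to 0.11 for Calr, 0.09 for Pdia4, 0.16 for Pdia6, 0.27 for Sdf2l1 and 0.21 for Manf, and that of Hspa5 was 0.10. In this fit 5 of the 37 genes had one, with 5.65% of all genes in either direction against 8.39% in the fit of all libraries. Without Dot1l(fl/+) replicate 1 the count was 16 (12.5% of all genes), and without control replicate 3 it was 5 (5.45% of all genes). Choroid plexus markers had a median log2 fold change of 0.59 in this comparison, with 5 of 5 above 0 and 4 at an unadjusted p under 0.05, and their part in the chaperone levels was not tested.

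**Figure D2:**
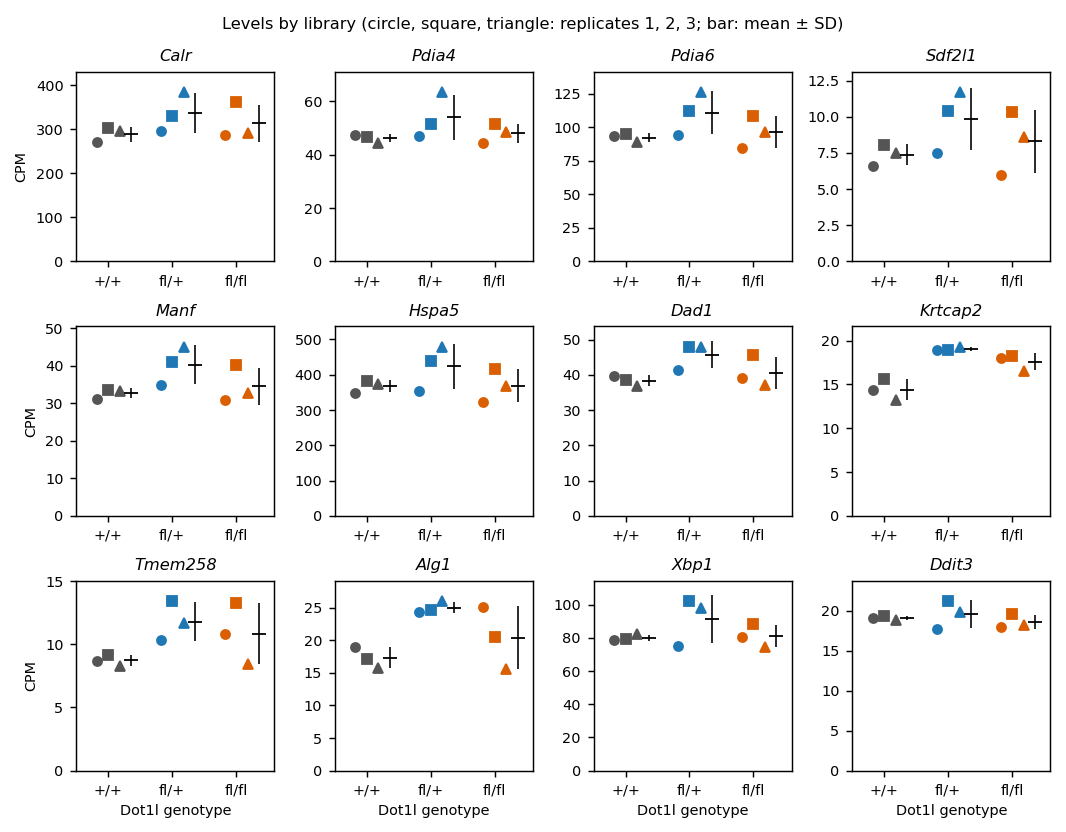
CPM in each library for 12 of the genes, with genotype on the x axis, a symbol for each replicate number and the mean ± SD (n = 3) beside it. The 3 Dot1l(fl/+) libraries of Krtcap2 lie between 18.9 and 19.3 CPM and of Alg1 between 24.4 and 26.0 CPM, above all controls, while those of Calr, Pdia4, Pdia6, Sdf2l1 and Hspa5 reach into the control range.

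The 4 glycosylation genes that passed in Dot1l(fl/+) kept an unadjusted p under 0.05 in edgeR whichever library was left out. Dot1l(fl/+) libraries all lay above all controls in 5 of the 37 genes (13.5%), against 6.84% of all genes tested, and 4 of the 5 were glycosylation genes. Krtcap2 (KCP2; chr3:89245966-89249906, GRCm38), a small accessory subunit of the oligosaccharyltransferase, had 14.4, 15.6 and 13.2 CPM in controls, against 18.9, 18.9 and 19.3 with 1 floxed allele and 18.0, 18.3 and 16.5 with 2. Neither floxed group overlapped the controls, and the Dot1l(fl/+) libraries were almost equal to each other (19.1 ± 0.24, SD, n = 3). Against controls, Dot1l(fl/+) had a log2 fold change of 0.41 (SE 0.09, 1.33-fold, unadjusted p = 0.000531 and adjusted p = 0.54 in edgeR), the lowest unadjusted p of the 37.

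Alg1 (chr16:5233621-5244912), the mannosyltransferase that adds the first mannose to the lipid-linked precursor of the sugar chain, had 19.0, 17.1 and 15.8 CPM in controls, against 24.4, 24.7 and 26.0 with 1 floxed allele and 25.2, 20.5 and 15.6 with 2. The Dot1l(fl/+) group stood clear of the controls, while Dot1l(fl/fl) spanned both. Its log2 fold change in Dot1l(fl/+) of 0.54 (SE 0.13, 1.45-fold, unadjusted p = 0.00146 and adjusted p = 0.541 in edgeR) was the largest of the 37. In DESeq2 on the 6 libraries compared its adjusted p was 0.00218.

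Tmem258 (chr19:10204014-10207824), a small membrane subunit of the oligosaccharyltransferase, had 8.70, 9.19 and 8.30 CPM in controls, against 10.3, 13.4 and 11.7 with 1 floxed allele and 10.8, 13.3 and 8.43 with 2. All Dot1l(fl/+) libraries and 2 of the Dot1l(fl/fl) libraries were above all controls. Dot1l(fl/+) had a log2 fold change against controls of 0.44 (SE 0.15, 1.35-fold, unadjusted p = 0.0117 in edgeR). Dad1 (chr14:54235479-54254104), a subunit first named for its defence against apoptotic cell death, had 39.8, 38.7 and 36.8 CPM in controls, against 41.4, 48.0 and 48.0 with 1 floxed allele and 39.1, 45.8 and 37.1 with 2. Its Dot1l(fl/+) libraries cleared the controls by a narrow margin in replicate 1 and by more in the others. The difference with 1 floxed allele was, on the log2 scale, 0.25 (SE 0.085, 1.19-fold, unadjusted p = 0.0101 in edgeR).

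These 4 genes kept an unadjusted p under 0.05 in each of the 9 fits that left out 1 library, with lowest log2 fold changes of 0.35 for Krtcap2, 0.48 for Alg1, 0.34 for Tmem258 and 0.22 for Dad1. The highest unadjusted p among those fits was 0.0496, for Tmem258 without Dot1l(fl/+) replicate 2. Without Dot1l(fl/+) replicate 3 the 4 genes and Tusc3 were the 5 that passed. Their counts were modest, with 139 in the lowest library of Tmem258 and 258 in that of Alg1. Exons of 3 of the 4 overlap a gene on the other strand: Krtcap2 overlaps Trim46 (61.4 CPM, log2 fold change −0.03 in Dot1l(fl/+)), Tmem258 overlaps Fen1 (12.5 CPM, 0.01) and Alg1 overlaps Eef2kmt (3.78 CPM, 0.06). The kit marks strand, but whether counting used it is not given in the sources used here, so these counts are uncertain to that extent.

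**Figure D3:**
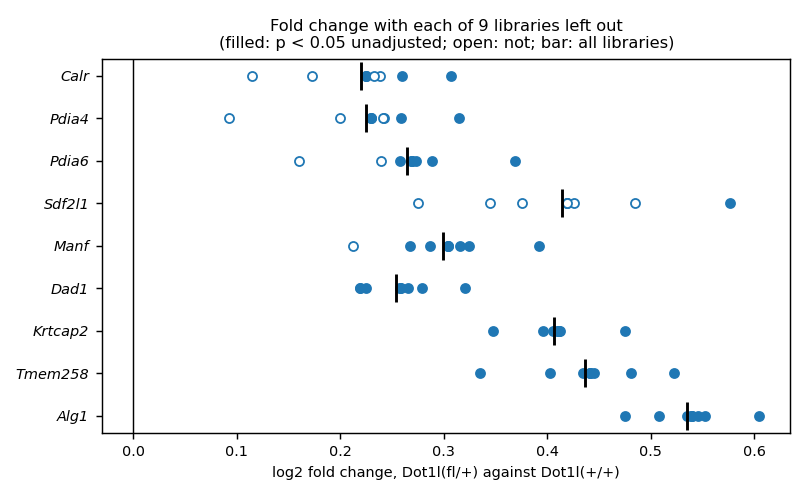
Log2 fold change in Dot1l(fl/+) against Dot1l(+/+) of the 9 genes with an unadjusted p under 0.05, with each of the 9 libraries left out in turn (points, filled where the unadjusted p stayed under 0.05) and with all libraries (bars). All points of Dad1, Krtcap2, Tmem258 and Alg1 are filled, whereas each chaperone has open points, 6 of 9 for Sdf2l1 and 1 of 9 for Manf.

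The other 8 glycosylation genes had log2 fold changes from −0.04 to 0.19, with unadjusted p-values of 0.0804 or more. The lowest was the catalytic subunit Stt3a, and its paralog Stt3b had 0.04. The structural subunits Rpn1, Rpn2 and Ddost had 0.07, 0.11 and 0.12, the small subunits Ost4 and Ostc 0.19 and 0.13, and the oxidoreductase Tusc3 0.14. Over all 12 glycosylation genes the median was 0.13. Of the 12, 11 lay above 0, against 48.9% of all genes. An unadjusted p under 0.05 was reached by 4, all on the higher side, where 4.3% of all genes did.

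In the edgeR fit of all 9 libraries none of the 8 UPR genes reached that p in Dot1l(fl/+). Of all genes 4.3% did on the higher and 4.09% on the lower side, so a count of 0 among 8 does not set these genes apart. Xbp1, whose mRNA is spliced by IRE1, had 78.8, 79.3 and 82.1 CPM in controls, against 75.0, 102 and 97.8 with 1 floxed allele and 80.8, 88.2 and 74.4 with 2. Its Dot1l(fl/+) libraries lay on both sides of the controls, with a log2 fold change of 0.20 (SE 0.096, unadjusted p = 0.061 in edgeR, but 0.0468 and 0.0465 in the DESeq2 fits of 9 and 6 libraries), and gene counts do not separate its spliced and unspliced forms. Atf4, translated when PERK or a related kinase is active, had 99.2, 92.7 and 89.7 CPM in controls, against 91.6, 97.8 and 95.7 with 1 floxed allele and 93.9, 94.3 and 92.6 with 2. The groups overlapped almost wholly, with a log2 fold change of 0.02 in Dot1l(fl/+) (SE 0.051, unadjusted p = 0.713 in edgeR), a sign that turned in 4 other fits.

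Ddit3 (CHOP), the pro-apoptotic factor of a prolonged UPR, had 19.1, 19.4 and 18.9 CPM in controls, against 17.7, 21.2 and 19.9 with 1 floxed allele and 18.0, 19.6 and 18.2 with 2. It differed by less than the spread within the floxed groups (log2 fold change 0.04, SE 0.087, unadjusted p = 0.669 in edgeR), the sign turned without Dot1l(fl/+) replicate 2, and its exons overlap Mars on the other strand (56.5 CPM). Trib3 had 0.52, 0.344 and 0.413 CPM in controls, against 0.313, 0.53 and 0.496 with 1 floxed allele and 0.44, 0.474 and 0.182 with 2, so a difference was not detectable at this depth (log2 fold change 0.08, SE 0.40, with the sign turned in 2 other fits). The other 4 were Herpud1 (0.14, unadjusted p = 0.066 in edgeR) and the 3 sensors, with log2 fold changes of −0.04 for Atf6, −0.07 for Eif2ak3 and −0.12 for Ern1. Over the 8 UPR genes the median was 0.03, with 5 above 0 and none at an unadjusted p under 0.05.

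**Figure D4:**
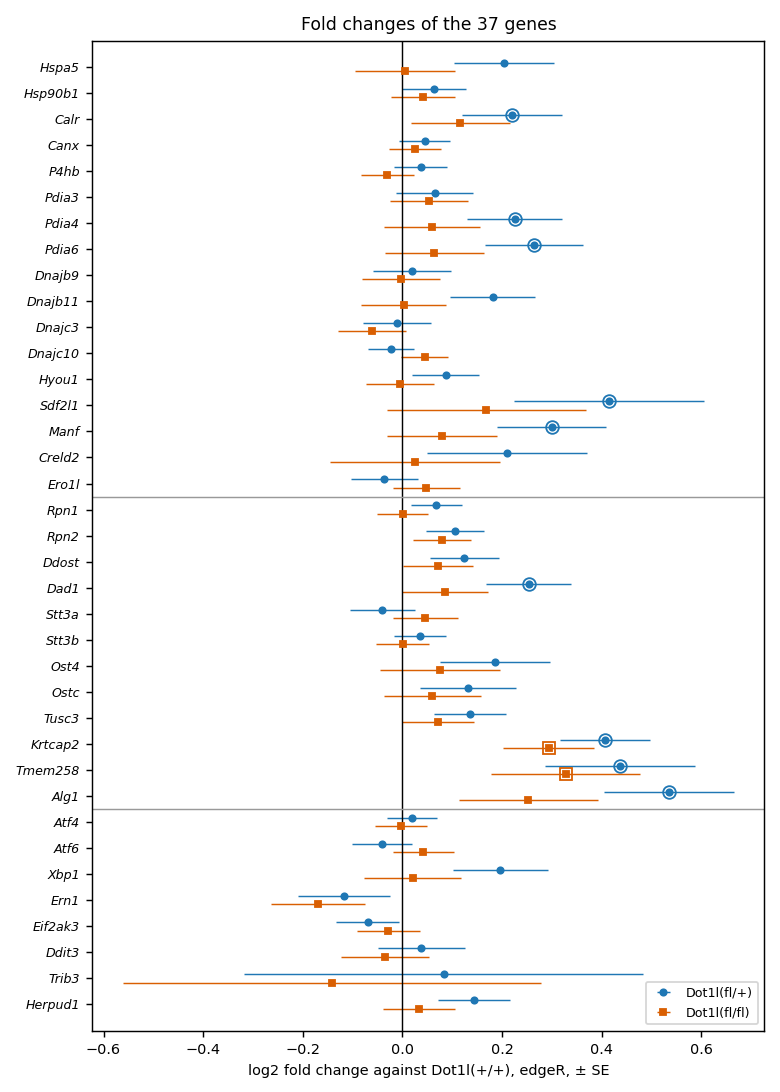
Log2 fold change ± SE against Dot1l(+/+) of the 37 genes in Dot1l(fl/+) (blue circles) and Dot1l(fl/fl) (orange squares), grouped as chaperones, glycosylation and UPR genes, with a ring or frame where the unadjusted p was under 0.05. Rings are seen on 9 genes and frames on 2, all on the higher side and none among the 8 UPR genes.

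Dot1l(fl/fl) was compared with the same controls to ask whether loss of both alleles goes with the same levels. Fewer genes reached an unadjusted p under 0.05: 2 of 37 (5.41%), Krtcap2 and Tmem258, did on the higher side, where 2.21% of all genes did, and 0 of 37 on the lower side, where 1.72% did. For Krtcap2, with all 3 libraries above all controls, the log2 fold change was 0.29 (SE 0.091, 1.23-fold, unadjusted p = 0.00635 in edgeR), and it kept an unadjusted p under 0.05 in each of the 9 fits without 1 library. It was the 1 gene of 37 whose Dot1l(fl/fl) libraries all lay above the controls (2.7%, against 5.03% of all genes). For Tmem258 the log2 fold change was 0.33 (SE 0.15, unadjusted p = 0.0498 in edgeR). It kept such a p in 3 of the 9 fits without 1 library, and without Dot1l(fl/fl) replicate 2 it was 0.15 (unadjusted p = 0.312 in edgeR).

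Alg1, with 25.2, 20.5 and 15.6 CPM across the Dot1l(fl/fl) libraries, had a log2 fold change of 0.25 (SE 0.14, unadjusted p = 0.0851 in edgeR). None of the 17 chaperones had an unadjusted p under 0.05. Their log2 fold changes ran from −0.06 (Dnajc3) to 0.17 (Sdf2l1), with 0.01 for Hspa5 and 0.12 for Calr. The medians were 0.04 for chaperones (13 of 17 above 0), 0.07 for glycosylation genes (12 of 12 above 0) and −0.02 for UPR genes (3 of 8 above 0), against 0.0009 over all genes. Ern1 was the UPR gene farthest from 0, with −0.17 (unadjusted p = 0.0945 in edgeR). After adjustment edgeR called 0 of 37 and 0% of all genes, and DESeq2, which put 2 of 37 at an unadjusted p under 0.05 in either fit (1.74% and 2.12% of all genes), also called 0 of 37 (0.0106% and 0.0817% of the genes with an adjusted p). Both comparisons use the same 3 control libraries.

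Between the floxed genotypes directly, 5 of 37 genes lay above 0 in Dot1l(fl/fl) against Dot1l(fl/+), and the median was −0.07 (0.0015 over all genes). With genotype as the only factor and all 9 libraries, none reached an unadjusted p under 0.05 in edgeR, where 2.87% of all genes did on the lower and 3.6% on the higher side, and 0% passed after adjustment. That count depended on the edgeR settings, the replicate block among them, and went from 0 to 8 of 37, all on the lower side, over the fits that kept all libraries of both genotypes, where 5.25% to 7.12% of all genes had such a p in either direction. DESeq2 put 4 of 37 (Hspa5, Pdia6, Manf and Alg1) at an unadjusted p under 0.05 on the lower side in the fit of 9 libraries (3.31% of all genes in either direction) and 1 (Alg1) in the fit of 6 (2.39%), and called 0 after adjustment (0.0783% and 0.0292% of the genes with an adjusted p). Alg1 had the lowest p in edgeR (log2 fold change −0.28, SE 0.13, unadjusted p = 0.0531), followed by Dnajb11 (−0.18, 0.056), Manf (−0.22, 0.0563) and Pdia6 (−0.20, 0.0618). Krtcap2 was the 1 gene whose Dot1l(fl/fl) libraries all lay below all Dot1l(fl/+) libraries, which held for 5.14% of all genes, and its log2 fold change was −0.11. Without Dot1l(fl/+) replicate 1, or without Dot1l(fl/fl) replicate 2, 9 of 37 had an unadjusted p under 0.05, all on the lower side, where 9.37% and 5.55% of all genes had one in either direction.

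Genes next to the 37 in the same pathways were then counted, from lists drawn up by symbol, and their counts in Dot1l(fl/+) are to be read against the 4.3% of all genes on the higher and 4.09% on the lower side. Among 28 other ER foldases and glycoprotein quality control genes tested, Dot1l(fl/+) had 4 at an unadjusted p under 0.05 on the higher side (14.3%) and 1 on the lower, with a median of 0.06. The 4 were the isomerase Txndc5 (66.7, 66.8 and 68.6 CPM in controls, 72.0, 72.1 and 76.1 with 1 floxed allele, log2 fold change 0.12), the PDI-like secretion factor Erp29 (0.16) and the proline isomerases Fkbp2 (0.21) and Fkbp7 (0.59). Txndc5 did not overlap between these groups. Uggt2, a glucosyltransferase paralogous to the sensor of misfolded glycoproteins, had −0.23. In Dot1l(fl/fl) none of the 28 had such a p against controls, and against Dot1l(fl/+) Prkcsh, the regulatory subunit of glucosidase II, had −0.11.

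The lipid-linked sugar donor showed no common direction. Of 29 genes listed for its assembly, 1 was higher with 1 floxed allele at an unadjusted p under 0.05 and 2 lower, with a median of −0.0098. The higher was Dpm3, the small anchoring subunit of dolichol-phosphate mannose synthase, with 3.88, 3.61 and 3.64 CPM in controls, against 5.29, 6.15 and 6.41 with 1 floxed allele and 4.20, 7.87 and 4.06 with 2. All 6 floxed libraries were above all controls, with log2 fold changes of 0.68 (SE 0.22, unadjusted p = 0.00727 in edgeR) and 0.55 (SE 0.22, unadjusted p = 0.0254 in edgeR). The mannosyltransferase Alg2 (−0.12) and the glucosyltransferase Alg10b (−0.18) were the lower ones. In Dot1l(fl/fl) against Dot1l(fl/+), Dhdds, a dolichol synthase subunit, had −0.13 and Ostm1 had 0.21. Ostm1 encodes a subunit of a lysosomal chloride transporter and has no known place in this assembly, although the list held it. The list also held Magt1, the paralog of Tusc3 in the oligosaccharyltransferase. Its log2 fold change in Dot1l(fl/+) was −0.18 (unadjusted p = 0.0671 in edgeR).

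Entry into the ER had 3 of 23 genes at an unadjusted p under 0.05 in Dot1l(fl/+), all higher (13%): Srp14 of the signal recognition particle (0.18), Ssr2 of the translocon-associated complex (0.16) and Spcs1 of the signal peptidase (0.24). ER-associated degradation had 1 of 27, near the share of all genes, the lectin Os9 (0.13), and Vcp, the ATPase that extracts substrates, had −0.15 in Dot1l(fl/fl) against Dot1l(fl/+). Of 36 further UPR regulators and targets, 2 were higher in Dot1l(fl/+) at that p, again near the share of all genes, Atf5 (0.33) and the asparagine synthetase Asns (0.14), and the cystine transporter Slc7a11 was lower (−0.20). Atf5 had 10.8, 10.8 and 11.3 CPM in controls against 12.2, 14.3 and 14.9 with 1 floxed allele, without overlap. The median over these 36 was −0.0074, and in Dot1l(fl/fl) against controls 1 was higher, Atf6b, the paralog of Atf6 (0.15), near the 2.21% of all genes. None of the genes in these lists passed after adjustment, the lowest adjusted p being 0.541 in Dot1l(fl/+).

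Cell type markers, exon length and GC content were looked at beside the glycosylation genes, and whether they move together was not tested. The dopamine markers lay below 0 in both floxed genotypes, further in Dot1l(fl/fl), where fewer of the 37 genes passed. Sums of 8 oligodendrocyte markers were 10349 to 11700 CPM in Dot1l(fl/+), against 10193 to 11244 in controls. Of these 8 markers, 3 had an unadjusted p under 0.05 on the higher side there (median 0.10), where 4.3% of all genes did. Of 6 astrocyte markers 1 did (median 0.03; sums of 2158 to 2432 against 2188 to 2253 CPM), and of 6 microglia markers none did (median 0.15; 206 to 237 against 206 to 218 CPM), nor did any of 5 endothelial markers (median 0.0012; 206 to 213 against 200.4 to 215 CPM). With 2 floxed alleles, 2 of 6 microglia markers had such a p on the higher side, where 2.21% of all genes did. The 6 markers had a median of 0.15 and sums of 231 to 248 CPM. No marker of any of these lists was at 0 in all libraries, and their part in the levels of the 37 genes was not tested. The 9 genes with an unadjusted p under 0.05 had a median exon length of 2682 bases, against 3732 in the other 28 and 3972 in all genes, with GC contents of 50.1%, 49.6% and 49.4%. With an offset for length and GC in each library, Dad1, Krtcap2, Tmem258 and Alg1 stayed at an unadjusted p under 0.05 in Dot1l(fl/+), with log2 fold changes of 0.33 or more for Krtcap2 and 0.37 or more for Tmem258 over the alternatives that kept all replicates, while Calr (0.20, unadjusted p = 0.0511 in edgeR) and Sdf2l1 (0.31, unadjusted p = 0.111 in edgeR) did not. Hspa5 (0.23, unadjusted p = 0.0444 in edgeR) and Tusc3 then had one, so that the count was again 9, where 7.06% of all genes passed.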

How the data were processed

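RNA was sequenced from dissected midbrain of 9 pools of adult mice, 3 per Dot1l genotype. Per the labels, libraries were made with a directional kit, and the submitters' processing notes name bcl2fastq 2.17, Trimmomatic 0.30, DESeq2 1.10.1 and the build GRCm38.p4; the aligner, counter and annotation release are not given in the sources used here. The authors deposited raw counts per Ensembl gene, 16422135 to 28403218 per library. Their 3 deposited comparisons hold log2 fold changes and p-values and were not used.

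Symbols, exons and lengths were taken from GENCODE M21 (47310 of 47729 identifiers, 99.94% of counts). Genes were filtered with filterByExpr (17671 left) and tested with edgeR 4.0.16 in R 4.3.3: TMM normalization, quasi-likelihood test, genotype as the only factor, all 9 libraries in 1 fit, Benjamini-Hochberg adjustment over all genes tested. Thresholds were an adjusted and, as a wider set, an unadjusted p of 0.05. The common biological coefficient of variation was 8.81%, and pairs of replicates had a chi-square per degree of freedom of 4.35 to 16.3, where counting error alone gives about 1. CPM are counts per 1000000 of TMM-scaled library size. Alternatives were DESeq2 1.42.0, its size factors, other filters, 2 groups only, the replicate number as a block, an offset for length and GC, and leaving out each library. Promoter windows came from RefSeq (GRCm38.p6); files were read with Python 3.11.15 and pandas 2.3.3, and figures drawn with matplotlib 3.10.9.

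Values per library are given for genes with an unadjusted p under 0.05 in any comparison and for Hspa5, Xbp1, Atf4, Ddit3 and Trib3; up to 6 genes are named per wider list. The 37 genes, the lists and the tests were chosen with earlier results of these data known.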

Additional observations from a re-analysis of the deposited data

How the results depend on the processing

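The median log2 fold change of the 37 genes kept its sign in Dot1l(fl/+) against Dot1l(+/+) (0.066 to 0.177 over the 9 fits without 1 library, 0.105 to 0.118 over the 9 other alternatives) and in Dot1l(fl/fl) against Dot1l(fl/+) (−0.117 to −0.0484), but reached −0.0019 in Dot1l(fl/fl) against Dot1l(+/+) when 1 library was left out. Genes with an adjusted p under 0.05 depended on the setting. In Dot1l(fl/+) against Dot1l(+/+) they numbered 0, and 251 without a filter on low counts, 1 in edgeR on the 2 groups, 7 in DESeq2 on 9 libraries, 42 in DESeq2 on the 2 groups and 0 to 5 with 1 library left out; of the 37 genes these were 5 without a filter (Calr, Pdia6, Manf, Krtcap2 and Alg1) and 1 in DESeq2 on the 2 groups (Alg1). In Dot1l(fl/fl) against Dot1l(+/+) the numbers were 118 without a filter, 4 on the 2 groups, 3 and 8 in the DESeq2 fits and 0 to 4 with 1 library left out, and in Dot1l(fl/fl) against Dot1l(fl/+) 164, 14 and 8 in the DESeq2 fits, and 0 to 12; none of the 37 was among them.

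At an unadjusted p under 0.05, 9 of the 37 genes became 14 without a filter (7.61% of all genes, against 8.39% with it) in Dot1l(fl/+) against Dot1l(+/+), and 5 to 16 with 1 library left out (5 without Dot1l(+/+) replicate 3 or Dot1l(fl/+) replicate 3, where 5.45% and 5.65% of all genes passed, and 16 without Dot1l(fl/+) replicate 1, where 12.5% did). In Dot1l(fl/fl) against Dot1l(+/+) 2 (3.93% of all genes) became 1 with the length and GC offset (4%). The count was 3 without a filter (4.27%) and 3 with block and offset together (4.31%). With 1 library left out it was 1 to 3, where 2.13% to 5.26% of all genes passed. In Dot1l(fl/fl) against Dot1l(fl/+) 0 (6.48% of all genes) became 8 without a filter (6.34%), 3 with 10 counts in every library (6.64%), 2 with the offset (5.88%), 4 and 1 in the DESeq2 fits (3.31% and 2.39%), and 0 to 9 with 1 library left out. The cause was not tested. Signs near 0 turned in Dot1l(fl/+) against Dot1l(+/+): Atf4 to −0.0252 with the length and GC offset, with or without the replicate block, and to −0.0106 and −0.0017 without 1 library, Ddit3 to −0.0227, and Trib3 to −0.0387 and −0.0608. With 1 library left out these values ran up to 0.0604, 0.1072 and 0.2755 for Atf4, Ddit3 and Trib3.

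Same-numbered libraries correlated in their deviations from the group means by 0.317, 0.312 and 0.289 for number 1, 0.111, 0.182 and 0.143 for number 2 and 0.09, 0.022 and 0.08 for number 3. These values were all positive, but not every library correlated best with its own number. The study's methods describe pools matched within nests. With 3 libraries per genotype, such correlations cannot show whether the numbers mark those sets. With the replicate number as a block, 12 of the 37 genes had an unadjusted p under 0.05 in Dot1l(fl/+) against Dot1l(+/+) and 6, all lower (Hspa5, Pdia6, Dnajb11, Manf, Dad1 and Alg1), in Dot1l(fl/fl) against Dot1l(fl/+) (13 and 6 with the offset as well), where 9.34% and 7.12% of all genes did, with unadjusted p = 0.0128 for Hspa5 and 0.0474 for Xbp1 in Dot1l(fl/+) in edgeR. With it, 3 genes passed after adjustment in Dot1l(fl/fl) against Dot1l(+/+) and 3 in Dot1l(fl/fl) against Dot1l(fl/+) (3 and 4 with block and offset together). Trib3 had by far the lowest counts of the 37, with 3 in its lowest library, where the next lowest gene had 139.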
